A study of Mus musculus with 12 samples.

Results

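The 12 libraries of the series were divided here by the Notch1 label: 8 carried a Notch1+/- label and 4 were wildtype. Of the 8, 4 were labelled Notch1+/-;Gata5+/- (double-heterozygous below) and 4 Notch1+/-;Gata5-/- (Gata5-null below), so every mutant pool also carried a Gata5 allele, and no pool had the Notch1 label alone. All were mouse aortic valves taken at postnatal day 10, each library a pool of 3 valves, and neither the structure of the alleles nor strain or sex appears in the labels. The contrast was the mean of the 2 mutant groups, with equal weight, minus wildtype; since 1 group alone can carry such a mean, each group is given beside it for the genes the results turn on. The labels call the pools biological replicates and do not describe litters, so p-values measure the spread between pools.

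Notch1 is a cell-surface receptor that is cut on binding a ligand of the Delta or Jagged family, which frees a fragment that acts with the DNA-binding protein RBPJ in the nucleus. Gata5 is a zinc-finger transcription factor of the heart's endocardial lineage. Both are known for roles in the valves that leave the heart, and loss of NOTCH1 in people is known for bicuspid aortic valve and valve calcification. A young aortic valve holds endothelial cells, interstitial cells, a layered matrix of collagen, proteoglycan and elastin, and, at its hinge and in the adjoining aortic wall, smooth muscle.

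Counts totalled 13866604 to 25059653 per library. Genes at 0 numbered 6000 in Gata5-null replicate 3, 3208 in wildtype replicate 2 and 1017 to 2908 elsewhere, and these 2 libraries also had the lowest mean Spearman correlation with the rest (0.892 and 0.925, against 0.933 to 0.950). Double-heterozygous replicate 4 held 0.728 CPM (a gene's counts relative to the TMM-scaled library size) of Xist, the RNA made from the inactive X chromosome of females, where the other 11 held 471.1 to 1849, and it had the highest sum of Y-linked genes, 255.6 CPM against 67.2 to 198.1. Cardiomyocyte RNA was present in every pool, with titin (Ttn) at 1.344% to 2.74% of counts, lowest in wildtype replicate 2.

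The targeted genes were read first. Gata5 had 0 counts in all 4 Gata5-null pools, 56, 18, 46 and 19 counts in wildtype, and 97, 112, 98 and 15 in the double-heterozygous pools. The means of the mutant groups thus stood on opposite sides of wildtype, 4.09 CPM in the double-heterozygous and 0 in the Gata5-null group. Double-heterozygous replicate 4, at 0.728 CPM, lay below every wildtype pool. The mean over the 8 mutant pools, 2.05 ± 2.64 CPM (SD), and 1.77 ± 1.03 in wildtype (n = 4) gave p = 0.873 in a two-sided exact test that permuted pools over 495 splits. The double-heterozygous pools alone against wildtype gave p = 0.143 in an exact permutation test. Averaged per group on the log2 scale, the fitted shared difference was -3.46, carried by the Gata5-null pools at 0 and no bound on a fold. A count of 0 in a library of this depth still allows 3 counts, a floor of 0.120 to 0.216 CPM that covers counting error only. Notch1 was not lower in the pools labelled Notch1+/-. Its levels were 116.1, 159.2, 98.6 and 138.5 CPM in wildtype, 182.3, 147.8, 162.2 and 194.1 in double-heterozygous pools, and 212.6, 207.4, 152.5 and 168.1 in Gata5-null pools. Of the 8 mutant pools 6 lay above the highest wildtype pool, wildtype replicate 2.

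The mean Notch1 level was 128.1 ± 26.4 CPM in wildtype (SD, n = 4) and 178.4 ± 24.7 in the mutant pools (n = 8), a difference with p = 0.0121 by the same exact permutation test (0.0242 after Benjamini-Hochberg adjustment over the 2 targeted genes), whose smallest possible p is 0.00404. Each mutant group alone against wildtype gave p = 0.0571 by the exact permutation test, whose smallest possible p is 0.0286 with 4 pools a side. In edgeR's quasi-likelihood test across all genes, the log2 difference of 0.48 (SE 0.13) did not pass after Benjamini-Hochberg adjustment (adjusted p = 0.981). It was 0.42 in the double-heterozygous and 0.53 in the Gata5-null group. The 2 mutant groups did not differ detectably from each other in Notch1 (Gata5-null minus double-heterozygous log2 0.11, 95% interval -0.20 to 0.42). The count table does not show whether the Notch1 reads came from an intact or an altered allele, so the label is used below as a label only.

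**Figure D1:**
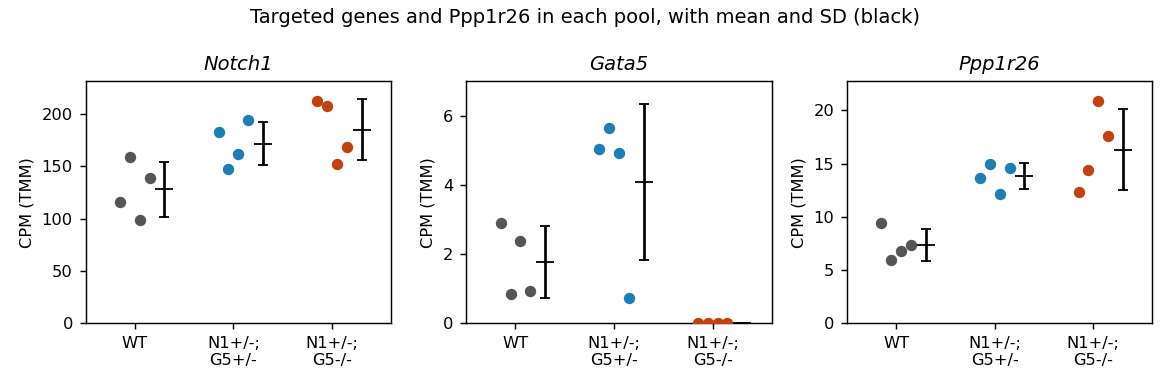
CPM (vertical axis, from 0) of Notch1, Gata5 and Ppp1r26 in each pool by labelled genotype (WT, wildtype; N1+/-;G5+/-, double-heterozygous; N1+/-;G5-/-, Gata5-null), with group mean and SD in black. Notch1 was higher in 6 of 8 mutant pools than in any wildtype pool, Gata5 was at 0 in the 4 Gata5-null pools, and Ppp1r26 was above wildtype in all 8 mutant pools.

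Across 19346 genes tested, 1 gene passed an adjusted p of 0.05 in the shared contrast (0.00517% of those tested), and it was lower: Itih4. At an unadjusted p under 0.05, 252 genes were higher (1.30%) and 362 lower (1.87%). The same fit called 0 genes between the 2 mutant groups, where 616 (3.18%) had an unadjusted p under 0.05. DESeq2 called 7 there, Gata5 among them, and each of the 7 was at 0 in 3 to 9 of the 12 libraries. The median log2 difference of all genes was -0.02, a value that TMM scaling sets near 0.

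Itih4, ENSMUSG00000021922 in the files, encodes a secreted protein related to the heavy chains of inter-alpha-trypsin inhibitor, some of which become attached to hyaluronan. It fell in the shared contrast. Wildtype pools held 64.2, 74.1, 78.1 and 93.2 CPM, double-heterozygous pools 40.5, 40.7, 51.2 and 46.3, and Gata5-null pools 26.5, 33.1, 37.0 and 41.0. All 8 mutant pools lay below all 4 wildtype pools, with group means of 77.4 ± 12.1, 44.7 ± 5.10 and 34.4 ± 6.18 CPM (SD, n = 4 each). The shared log2 difference was -0.98 (SE 0.15), with an adjusted p of 0.0101 by edgeR's quasi-likelihood test. Against wildtype the log2 difference was -0.79 (SE 0.17) in the double-heterozygous group, with an adjusted p of 1 by edgeR, and -1.17 (SE 0.17) in the Gata5-null group, with an adjusted p of 0.00824. The direct difference between those groups was -0.38 (95% interval -0.74 to -0.02; unadjusted p = 0.0395, adjusted p = 1). Without wildtype replicate 4, the highest pool, the log2 difference was -0.88 and the call was lost (adjusted p = 0.225).

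The promoter of Itih4 is shown because it is the gene that passed and because proteins of the labelled pathways bind known DNA words. The 250 bases before its RefSeq start (GRCm38.p6, chr14:30886226-30886475, plus strand) were searched on both strands for AGATAA, a word bound by factors of the Gata5 family, for TGGGAA, the core of the RBPJ site, and for the CArG box bound by serum response factor. The AGATAA match, found once and read from the opposite strand, is in capitals, and neither other word was found. AGATAA occurs in 9.99% of 32851 promoter windows of this length, TGGGAA in 21.6% and the CArG box in 1.47%, so the match is a description and marks no bound site.
Itih4: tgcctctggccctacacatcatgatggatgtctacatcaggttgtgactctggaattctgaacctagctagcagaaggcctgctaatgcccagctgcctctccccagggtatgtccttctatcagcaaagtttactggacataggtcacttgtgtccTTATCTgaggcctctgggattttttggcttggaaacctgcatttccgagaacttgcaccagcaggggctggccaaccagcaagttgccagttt

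Genes next in order by p were mostly smooth muscle contractile genes, and they are given as values that did not pass. Mylk, the kinase that activates smooth muscle myosin, was at 426.1, 488.6, 383.4 and 470.6 CPM in wildtype, 335.2, 355.6, 339.7 and 354.8 in double-heterozygous pools, and 278.0, 270.7, 221.3 and 282.7 in Gata5-null pools. Myh11, the smooth muscle myosin heavy chain, was at 2226, 2619, 1901 and 2683 CPM in wildtype, at 1648 to 1891 in the double-heterozygous pools and at 1169 to 1666 in the Gata5-null pools. For Synpo2, an actin-binding protein of the contractile apparatus, the ranges in the same order were 345.0 to 410.0, 286.3 to 333.6 and 178.8 to 264.6 CPM. No mutant pool reached a wildtype pool for any of these 3 genes.

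Their shared log2 differences were -0.55 (SE 0.10) for Mylk, -0.57 (SE 0.11) for Myh11 and -0.57 (SE 0.11) for Synpo2, and each had an adjusted p of 0.0838 by edgeR's quasi-likelihood test. All 3 passed when counts were scaled by RLE size factors (adjusted p = 0.0381), and they passed in limma-voom and DESeq2 as well. In all 3 the Gata5-null group was lower than the double-heterozygous group at an unadjusted p under 0.05 by edgeR, with 0.00243 for Mylk and 0.00603 for Myh11. The pools of these groups overlapped for Myh11. The log2 difference from wildtype was -0.35 in the double-heterozygous and -0.75 in the Gata5-null group for Mylk, -0.38 and -0.75 for Myh11, and -0.31 and -0.83 for Synpo2. Gata5-null minus double-heterozygous was -0.52 for Synpo2 (95% interval -0.78 to -0.26; unadjusted p = 0.000378), though no gene passed after adjustment over all genes in that comparison.

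Osr1, a zinc-finger transcription factor of the odd-skipped family, and Ntrk3, the neurotrophin-3 receptor, were lower in both mutant groups, and the intervals of the difference between those groups included 0. Osr1 was at 50.4, 83.7, 50.8 and 82.3 CPM in wildtype and at 23.8 to 42.7 in the 8 mutant pools, and its shared log2 difference was -0.87 (SE 0.17, adjusted p = 0.159 by edgeR). Its direct difference between the mutant groups was -0.13 (95% interval -0.56 to 0.30). Ntrk3 was at 175.3 to 221.8 CPM in wildtype and 131.7 to 167.7 in the mutant pools, and its shared log2 difference was -0.45 (SE 0.11, adjusted p = 0.692 by edgeR). The difference between mutant groups for Ntrk3 was -0.03 (95% interval -0.29 to 0.23). DESeq2 called Ntrk3 in the shared contrast with its default filter (adjusted p = 0.00861) and not without it (0.0507). Osr1 had no adjusted p with that filter and was called without it (0.0397 by DESeq2).

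**Figure D2:**
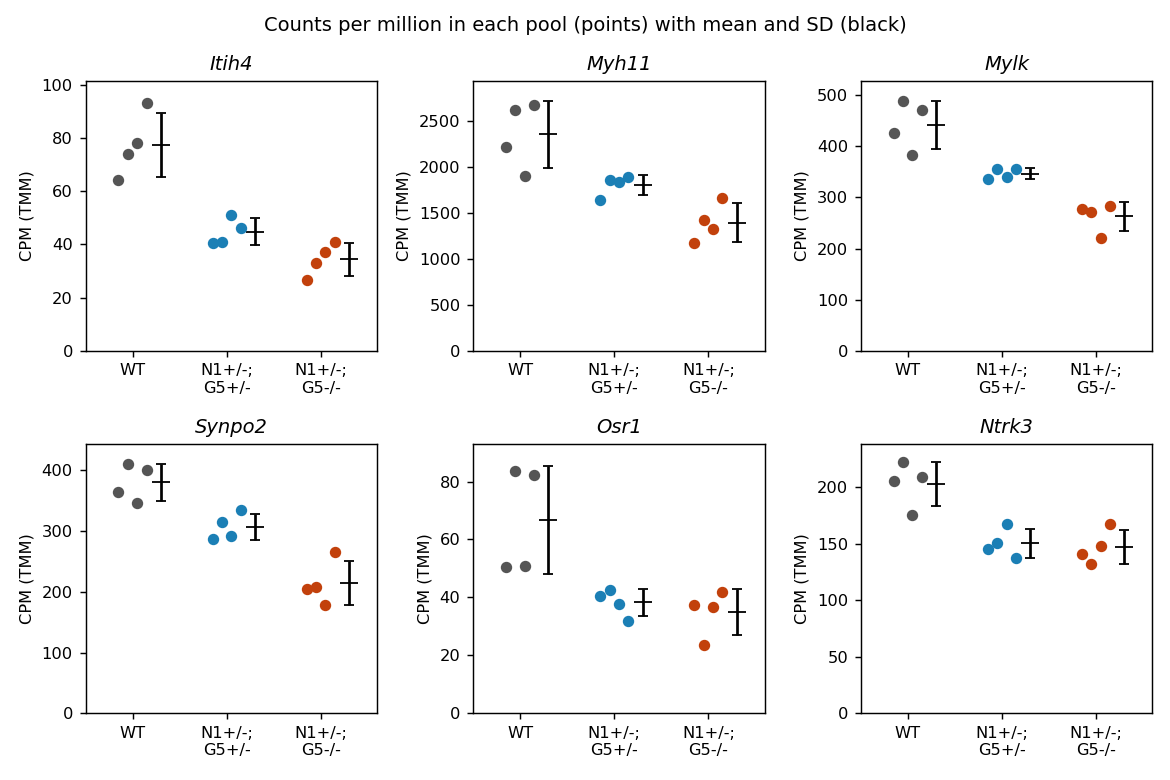
CPM (vertical axis, from 0) of 6 genes in each pool by labelled genotype, with mean and SD in black. In all 6 panels every mutant pool lies below every wildtype pool, and the pools of the 2 mutant groups overlap for Itih4, Myh11, Osr1 and Ntrk3 and not for Mylk and Synpo2.

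The rest of the 10 lower genes with the smallest p did not pass in edgeR either. Cnn1, calponin, which binds actin in smooth muscle, had a shared log2 difference of -0.58 (adjusted p = 0.247), and Tagln, transgelin, another actin-binding marker, -0.46 (adjusted p = 0.701), both by edgeR. Cbr2, a carbonyl reductase, was at -0.83 (adjusted p = 0.450 by edgeR), and the secreted C1q-domain protein gene C1qtnf6 at -0.50 (adjusted p = 0.692 by edgeR). In each of these 4 genes, 7 of 8 mutant pools were below the lowest wildtype pool. Cbr2, Cnn1 and Tagln were lower in the Gata5-null than in the double-heterozygous group, at unadjusted p of 0.00405, 0.00425 and 0.00643. DESeq2 with its default filter called Cnn1, Tagln and C1qtnf6 in the shared contrast (adjusted p = 0.0041, 0.00861 and 0.01505) and gave Cbr2 no adjusted p. Without that filter it called only Cnn1 of them (adjusted p = 0.0219).

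Among genes higher in the mutant pools, none passed in edgeR, while DESeq2 called Col8a1, Zc3h11a and Notch1 (adjusted p = 0.0217, 0.0345 and 0.0493) with its default filter and none of these 3 without it. Col8a1, a short-chain collagen of the vessel wall and valve, was at 110.3, 78.8, 83.8 and 115.1 CPM in wildtype, 151.3, 132.8, 153.5 and 124.5 in the double-heterozygous, and 184.3, 147.6, 130.2 and 114.8 in the Gata5-null pools, so 7 of 8 lay above wildtype. Its log2 difference of 0.55 (SE 0.14, adjusted p = 0.833 by edgeR) was made up of 0.54 and 0.57 in the double-heterozygous and Gata5-null groups, with a direct difference of 0.04 (95% interval -0.29 to 0.36). Ppp1r26, a regulatory subunit of protein phosphatase 1, was above wildtype in all 8 mutant pools: 5.91 to 9.41 CPM in wildtype, 12.2 to 15.01 in the double-heterozygous and 12.3 to 20.9 in the Gata5-null pools. Its log2 difference was 1.03 (SE 0.28, adjusted p = 0.833 by edgeR). Pvt1, a long noncoding RNA, was also above wildtype in all 8, at 4.42 to 7.03 CPM against 8.77 to 16.5, with a log2 difference of 1.10 (SE 0.31, adjusted p = 0.987 by edgeR).

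The other 6 genes in that order did not pass either. Their log2 differences were 0.71 for Crispld1, a secreted protein with a CAP domain, 0.57 for Olfml3, a secreted olfactomedin-domain protein, and 0.51 for the matricellular gene Ccn1. They were 0.42 for Col16a1, a fibril-associated collagen, 0.65 for St3gal5, which makes the ganglioside GM3, and 0.39 for Zc3h11a, a zinc-finger RNA-binding protein. These genes were higher in 6 or 7 of 8 mutant pools than in the highest wildtype pool. None had an unadjusted p under 0.05 for a difference between the mutant groups, and only for Crispld1 was that p near it (0.0615; Gata5-null minus double-heterozygous 0.40, 95% interval -0.02 to 0.82).

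**Figure D3:**
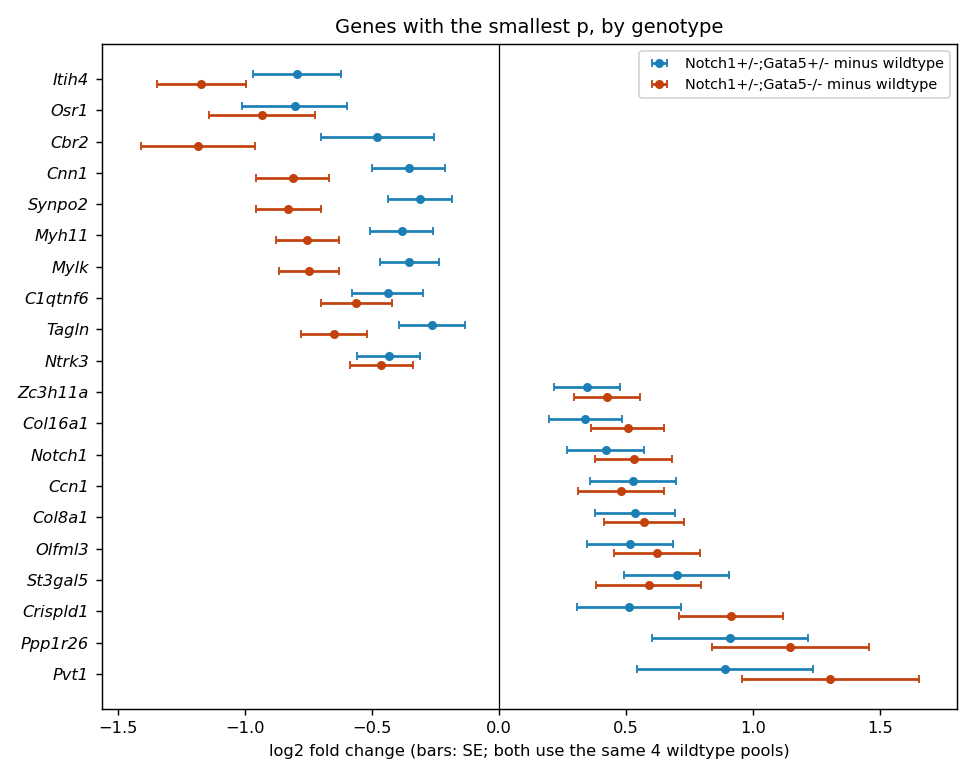
Log2 fold change against the same 4 wildtype pools (horizontal axis; bars are SE) for the double-heterozygous (blue) and Gata5-null (orange) groups, for Notch1, Itih4 and the 18 other genes with the smallest p in either direction. Every gene drawn, all but Notch1 chosen by the shared contrast, has values in both groups on the same side of 0. Osr1, Ntrk3 and Col8a1 have close values in the mutant groups. Itih4, Cbr2 and the smooth muscle genes Cnn1, Synpo2, Myh11, Mylk and Tagln lie further below 0 in the Gata5-null group (unadjusted p under 0.05 between the groups by edgeR).

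In 63 genes (0.326% of those tested) the 8 mutant pools lay wholly above or wholly below the 4 wildtype pools, 26 above (0.134%) and 37 below (0.191%). Of these 52 had an unadjusted p under 0.05 by edgeR in the shared contrast, where 3.17% of all genes did. That count follows from the choice of separated genes and is no separate evidence. Between the mutant groups 9 had an unadjusted p under 0.05, where 3.18% of all genes did. Were the labels exchangeable, a gene would separate fully in either direction with probability 0.00404, the smallest p of the exact permutation test above. Full separation is therefore a description and marks no change by itself. The members named here and not above were chosen after their values were seen. Below wildtype were Cpe, carboxypeptidase E, which trims peptide hormones (-0.41), Ppp1r12a, the targeting subunit of myosin phosphatase (-0.34), Myl6, a non-muscle and smooth muscle myosin light chain (-0.32), and Bmpr1b, a BMP type I receptor (-1.16). Bmpr1b was at 11.1 to 22.8 CPM in wildtype and 3.76 to 10.8 in the mutant pools. Cpe was called by DESeq2 with its default filter (adjusted p = 0.0041) and without it (0.0226), and not by edgeR (adjusted p = 0.833). Above wildtype were Fos, an immediate early transcription factor (1.36; 1.15 to 4.97 CPM in wildtype and 5.78 to 11.9 in the mutants), and Kif2c, a mitotic kinesin (1.33).

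Up to 40 tested genes on each side of Notch1 and Gata5, in the gene order of the older build, were read as well, chosen after the values were seen; only the 81.7% of tested genes with a position there were counted. Of 80 Notch1 neighbours 2 had an unadjusted p under 0.05 (2.5%, where all genes gave 3.17%), among them Ppp1r26, which lay 30 such genes from Notch1 and was the only neighbour whose mutant pools did not overlap wildtype. Of 77 Gata5 neighbours, fewer than 80 since the order ends on 1 side, 2 had an unadjusted p under 0.05 (2.6%), Cdh26 and Col9a3. The neighbours as a whole were near the background share.

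The smooth muscle contractile genes were low as a list, chosen with earlier results of these data known and so not independent evidence of its direction. Of 21 tested genes 19 were lower and 2 higher, 0 were called by edgeR, and 12 had an unadjusted p under 0.05 in the lower direction, where 1.87% of all genes did. DESeq2 called 8 of them with its default filter (Mylk, Myh11, Synpo2, Cnn1, Tagln, Itga8, Acta2 and Tpm2) and 4 without it, and RLE scaling, upper quartile scaling and limma-voom each called 3. The median log2 difference was -0.37, against -0.02 for all genes, with -0.26 in the double-heterozygous and -0.51 in the Gata5-null group, and it was -0.26 without wildtype replicate 2 and Gata5-null replicate 3. Acta2, smooth muscle actin, was at 1172 to 1744 CPM in wildtype, 1073 to 1294 in the double-heterozygous and 832 to 1252 in the Gata5-null pools (log2 difference -0.44). Of the others Actg2, enteric smooth muscle actin, was at -1.09, Itga8, an integrin of contractile cells, at -0.44, Tpm2, beta-tropomyosin, at -0.44, and Lmod1, leiomodin, at -0.35. Csrp1 was at -0.32, Myl9 at -0.37 (-0.23 without wildtype replicate 4) and Kcnmb1 at -0.46 (-0.27 without wildtype replicate 2). The exceptions were Des, desmin, at 0.11 and Ldb3 at 0.13, genes also expressed by heart muscle.

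Summed over the list, CPM ran from 11230 to 13460 in wildtype, 8944 to 11630 in the double-heterozygous and 7600 to 10940 in the Gata5-null pools, so the first 2 groups overlapped. Elastin (Eln), made by smooth muscle and valve interstitial cells, was lower as well (log2 difference -0.41). Its share of counts was 12.5% and 12.4% in wildtype replicates 2 and 4, which also had the highest Myh11, and 6.30% to 9.68% in the other 10 pools. The list's sum was highest in wildtype replicate 4, but at 11510 CPM in wildtype replicate 2 it was near replicates 1 and 3 (11230 and 11290). The part of Eln in the result was not tested. In bulk RNA, fewer cells of a type and less RNA per cell cannot be told apart. Of 10 smooth muscle regulators tested 4 were higher and 6 lower, with a median of -0.09 (0.01 in the double-heterozygous and -0.19 in the Gata5-null group; 0.00 in the shared contrast without Gata5-null replicate 3). Myocd, the smooth muscle coactivator, was at 0.01 and -0.22 in those 2 groups, Srf, its partner, at 0.19 and -0.35, and Mrtfa at 0.23 and 0.09.

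**Figure D4:**
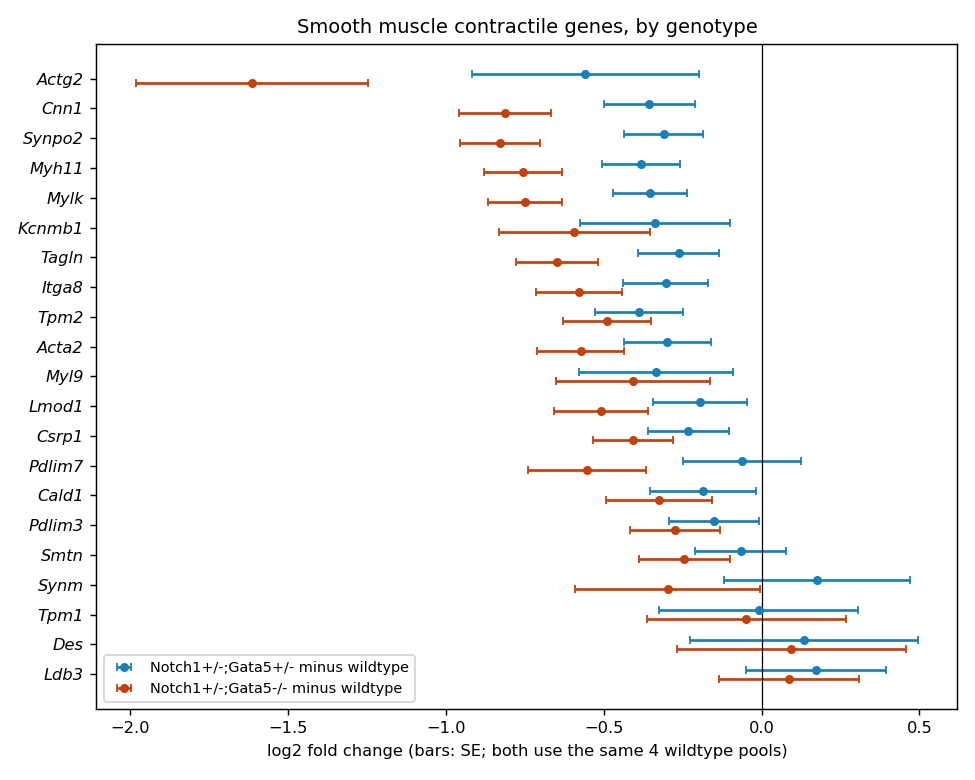
Log2 fold change against the same 4 wildtype pools (horizontal axis; bars are SE) for the 21 tested smooth muscle genes in the double-heterozygous (blue) and Gata5-null (orange) groups. Actg2 is lowest in both groups, and Des and Ldb3 lie above 0.

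The promoter of Acta2, shown as a member of that list, covers the 250 bases before its RefSeq start (GRCm38.p6, chr19:34255374-34255623, minus strand). TGGGAA was found once and is in capitals, and it occurs in 21.6% of promoter windows. Neither AGATAA nor an exact CArG box was found there, and none of the 3 words was found in the same windows of Mylk, Synpo2 and Cnn1. The CArG search asked for CC, a run of only A or T, and GG, so near variants were not counted. The Acta2 window holds ccctatatgg and ccttgtttgg, each 1 base from that pattern, and the capitals overlap the latter. The search therefore does not show that a site for serum response factor is absent. The promoter table held no entry for Myh11, Osr1, Tagln or Ntrk3.
Acta2: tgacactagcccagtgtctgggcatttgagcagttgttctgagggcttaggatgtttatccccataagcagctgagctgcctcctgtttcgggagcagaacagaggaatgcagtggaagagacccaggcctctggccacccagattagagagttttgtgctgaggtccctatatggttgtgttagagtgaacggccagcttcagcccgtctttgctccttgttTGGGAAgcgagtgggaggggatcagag

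Cartilage-like matrix genes, those shared by cartilage and the proteoglycan-rich valve layer, lay mostly above wildtype: of 19 tested 17 were higher and 2 lower. Of the higher ones 4 had an unadjusted p under 0.05 (background 1.30%). EdgeR called 0, and so did DESeq2 with its default filter, which gave Sox9 and Comp among others no adjusted p, and without it. Summed CPM was 745.1 to 1004 in wildtype, 938.0 to 1310 in the double-heterozygous and 726.2 to 1750 in the Gata5-null pools, so 3 of 8 mutant pools (double-heterozygous replicates 2 and 4 and Gata5-null replicate 4) were not above wildtype. The median was 0.42, with 0.41 in the double-heterozygous and 0.52 in the Gata5-null group, and it was 0.56 without wildtype replicate 2 and Gata5-null replicate 3. Col2a1, the type II collagen, was at 59.6, 118.7, 77.2 and 60.0 CPM in wildtype, 182.6, 105.8, 152.8 and 125.3 in the double-heterozygous, and 363.0, 221.9, 183.7 and 48.1 in the Gata5-null pools (log2 difference 1.11, SE 0.46). Gata5-null replicate 4 was thus below every wildtype pool, while 6 of 8 mutants were above them. Comp, a cartilage matrix glycoprotein, was at 0.84, Col9a3, a chain of type IX collagen, at 0.78 and Col11a1 at 0.56, the other 3 genes under that p. Sox9, the transcription factor of cartilage, was at 0.23 (0.14 without wildtype replicate 2) and Acan, aggrecan, at 0.20 (0.06 without wildtype replicate 3). Neither mean described both groups. Sox9 was at 0.48 in the double-heterozygous and -0.02 in the Gata5-null group, and Acan at -0.03 and 0.44. Between the mutant groups the unadjusted p by edgeR was 0.108 for Sox9 and 0.0254 for Acan.

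The other Notch and GATA genes lay on both sides of 0. Without Notch1 itself, ligands and receptors were 4 higher and 3 lower of 7, with a median of 0.05 and with Notch2 at 0.05 and Notch3 at -0.09. Notch targets and modulators were 7 higher and 9 lower of 16, with a median of -0.05. The targets Hey1, Hey2 and Heyl, repressors induced by Notch, were at -0.16, -0.10 and -0.08. Lfng, a glycosyltransferase that modifies Notch receptors, was the gene of that list under an unadjusted p of 0.05, at 2.75 to 7.23 CPM in wildtype, 6.82 to 12.7 in the double-heterozygous and 4.02 to 13.5 in the Gata5-null pools (log2 difference 0.95, unadjusted p = 0.0230; higher than wildtype in 6 of 8). Gata4 and Gata6, the related factors, were at 0.16 and 0.04, and the 12 GATA and cardiac transcription factor genes other than Gata5 were 7 higher and 5 lower, with a median of 0.02.

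In the matrix, elastic fibre genes were 13 lower and 7 higher of 20, with a median of -0.10 that was -0.01 without wildtype replicate 2, 3 lower and 1 higher under an unadjusted p of 0.05. Eln was at -0.41 (SE 0.13), Fbn1, fibrillin, at -0.07, and Lox, the crosslinking oxidase, at -0.19. Hyaluronan and versican genes, 17 tested, held the single call, Itih4, with a median of 0.09. Vcan, versican, was at 0.21, Has2, a hyaluronan synthase, at 0.09, and Cd44, the hyaluronan receptor, at 0.03. The relatives Itih5, Itih2 and Itih3 were at 0.26, -0.09 and -0.45 (Itih3 at -0.07 without wildtype replicate 1), and were chosen after their values were seen. Fibrillar and type VI collagens had a median of -0.03 over 11 genes, with Col1a1 at 0.15, Col3a1 at -0.03 and Col5a1 at 0.17. Of that list DESeq2 called Col6a6 with its default filter (its log2 difference -0.43, adjusted p = 0.0183) and not without it.

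Integrins, the receptors that hold cells to matrix, were 14 lower and 4 higher of 18, with a median of -0.15 that was -0.08 without Gata5-null replicate 3, and 5 under an unadjusted p of 0.05 in the lower direction, where 1.87% of all genes were. These were Itga8 and, chosen after their values were seen, Itgb3 (-0.59), Itga3 (-0.51), Itga7 (-0.24) and Itga9 (-0.23). Without wildtype replicate 2 Itga3 was at -0.17 and Itga9 at -0.15. Itga8 stands in the smooth muscle list as well. Basement membrane genes were 15 lower and 5 higher of 20, with a median of -0.07 (-0.01 without wildtype replicate 2), and Col4a6, a chain of type IV collagen, was at -0.48 (SE 0.13). DESeq2 called Col4a6 with its default filter (adjusted p = 0.0494) and not without it. Matricellular genes, 17 tested, were 12 higher and 5 lower, with a median of 0.15 (0.03 without wildtype replicate 3) and with Postn, periostin, at 0.02, Tnc, tenascin C, at -0.15 and Ccn2 at 0.04. The BMP and TGF-beta genes were 16 higher and 15 lower of 31. Tgfb2, a TGF-beta ligand, was at -0.47 (SE 0.15), and the type I receptors Tgfbr1 (-0.25) and Bmpr1b (-1.16) were wholly below wildtype. Bmp4 was at 0.33 (0.63 without wildtype replicate 4) and Tgfbr2 at 0.06.

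With all 12 libraries, none of the valve's endothelial, interstitial or macrophage markers was called by edgeR or DESeq2. The default filter of DESeq2 gave many of them no adjusted p, among them Cdh5, Nfatc1, Cd68, Adgre1, Csf1r and Cbr2. Without that filter DESeq2 called 0 in each of these lists. Endothelial genes were 18 higher and 8 lower of 26, with a median of 0.12, and Pecam1 and Cdh5 were both at 0.12, while Nfatc1, a marker of valve endothelium, was at 0.56 (SE 0.19; 5 of 8 mutant pools above wildtype). Nfatc1 was at 0.32 in the double-heterozygous and 0.80 in the Gata5-null group. Its direct difference between them was 0.48 (95% interval 0.03 to 0.93, unadjusted p = 0.0382 by edgeR). Interstitial and fibroblast markers were 12 higher and 5 lower of 17, with a median of 0.11 and with Pdgfra at -0.04 and Vim at 0.10. Of these markers 3 had an unadjusted p under 0.05 by edgeR in the higher direction, where 1.30% of all genes did. Macrophage genes were 7 higher and 11 lower of 18, with a median of -0.13 (-0.03 without wildtype replicate 2). The lowest of them was Cbr2, at -0.83, which edgeR called without Gata5-null replicate 4 (adjusted p = 0.044). Immediate early and heat shock genes had a median of 0.06 over 21. The 7 mitochondrially encoded genes were all higher, with a median of 0.31 that ran from 0.12 to 0.48 as each library was left out.

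Markers of heart muscle, which a dissection can include, were read beside these. Atrial cardiomyocyte genes were 12 lower and 1 higher of 13, with a median of -0.49 that ran from -0.79 without double-heterozygous replicate 4 to -0.29 without Gata5-null replicate 1. Nppa, an atrial hormone, was at 48.5 to 66.2 CPM in wildtype and at 16.97 to 54.1 in the mutants, 7 of 8 below wildtype. Myl7, an atrial myosin light chain, was at 149.0, 37.1, 204.5 and 36.5 CPM in wildtype, 15.98, 19.5, 16.5 and 161.8 in the double-heterozygous, and 4.54, 31.6, 98.0 and 17.02 in the Gata5-null pools, so single pools carried most of it. Ventricular and general cardiomyocyte genes were 23 higher and 2 lower of 25, with a median of 0.13 that was -0.08 without wildtype replicate 2. With the ventricular score as a covariate Itih4 stayed called and Mylk, Myh11 and Synpo2 passed (adjusted p = 0.0384 for the 3 by edgeR).

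**Figure D5:**
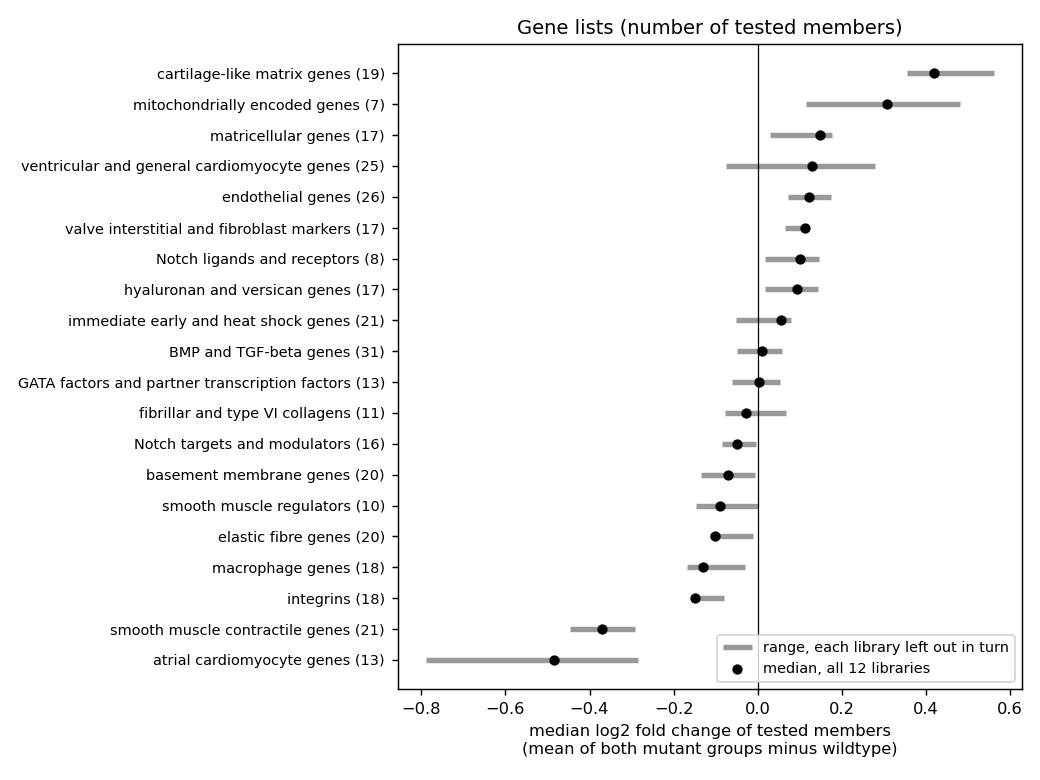
Median log2 fold change of the tested members of each list (points, horizontal axis; both mutant groups minus wildtype; all-gene median -0.02), with the range of that median when each of the 12 libraries was left out in turn (grey bars). Smooth muscle contractile genes lie at -0.37, with a range of -0.45 to -0.29, and cartilage-like matrix genes at 0.42, with a range of 0.36 to 0.56.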

How the data were processed

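Per the labels, poly-A RNA of pooled valves was sequenced, and the submitters' processing notes name Trim Galore, STAR 2.7.10b, DESeq2 1.34.0 and GRCm39; no source used here states the counter, annotation release or strand setting, so overlapping genes on opposite strands may share counts. The deposited table holds raw counts of 20620 genes. A second deposited table gives the authors' mean signal, log2 fold change, scores and p-values for a comparison it does not name; only its gene symbols were used (13959, with 6077 from GENCODE M21 and 584 genes unnamed). With R 4.3.3, edgeR 4.0.16 (TMM, filterByExpr, robust quasi-likelihood, 1 term per group) tested 19346 genes; limma 3.58.1 and DESeq2 1.42.0 were alternatives. Promoter sequence came from RefSeq, GRCm38.p6. Coordinates of called genes were not compared, since the reference was another build.

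Members and lists were chosen with earlier results of these data known. Genes named were Notch1, Gata5, called genes, genes of smallest p up to 10 a direction (mean log2 CPM of at least 1) and the first 3 members of described lists; all others, among them Lfng, Comp, Col9a3, Col11a1, Col4a6, Tgfbr1 and further smooth muscle genes, were chosen after their values were seen. The replicate numbers were not used as pairs: deviations of the 12 same-numbered pairs correlated at -0.03 to 0.10, with 0 over 0.1. The highest value, 0.095, was between wildtype and double-heterozygous replicates 4, while differently numbered pairs reached 0.055. In each group replicate 4 had the most counts and the largest mitochondrial share (1.625% in wildtype, 1.86% in double-heterozygous and 2.279% in Gata5-null). Whether libraries of the same number shared a processing step was not tested.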

Additional observations from a re-analysis of the deposited data

Results flagged for a closer look

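In groups of 4, a pool stood apart from the other 3 in 26 of 390 checks (130 genes in 3 groups) when its gap was set against Dixon's 95% value of 0.829; chance alone flags about 1 in 20. In double-heterozygous replicate 4, Gata5 was at 0.7282 CPM (others 4.939 to 5.66), C1qtnf6 was at 109.8 CPM (others 105 to 105.6), Myl7 was at 161.8 CPM (others 15.98 to 19.51). In wildtype replicate 4, Heyl was at 199.9 CPM (others 143 to 150.2), Bmp4 was at 45.87 CPM (others 22.5 to 25.48). In wildtype replicate 3, Gata6 was at 81.97 CPM (others 102.7 to 106.1). In double-heterozygous replicate 1, Myocd was at 79.33 CPM (others 115.5 to 120.7), Itga5 was at 51.27 CPM (others 68.48 to 69.56), Comp was at 91.98 CPM (others 52.72 to 56.85), Thbs1 was at 721 CPM (others 351.4 to 378.3). In Gata5-null replicate 4, Myocd was at 112.9 CPM (others 83.36 to 88.14), Cdh5 was at 146.9 CPM (others 99.01 to 101.5), Tpm2 was at 217.7 CPM (others 158.9 to 166.9), Ldb3 was at 228.5 CPM (others 193.2 to 198.9). In double-heterozygous replicate 3, Has2 was at 8.265 CPM (others 11.47 to 11.8), Kcnmb1 was at 43.95 CPM (others 29.93 to 32.09). In Gata5-null replicate 3, Tgfb2 was at 46.54 CPM (others 75.64 to 80.55), Cd68 was at 23.75 CPM (others 1.171 to 3.626), Adgre1 was at 4.956 CPM (others 20.2 to 23.18), Itih2 was at 14.8 CPM (others 7.765 to 8.289), Itih3 was at 4.543 CPM (others 0.843 to 1.425), Hand2 was at 49.36 CPM (others 36.67 to 38.2). In wildtype replicate 2, Pdlim3 was at 232.6 CPM (others 156.5 to 167.1), Tgfbr1 was at 145.9 CPM (others 120.6 to 123.8). In Gata5-null replicate 2, Lfng was at 4.015 CPM (others 12.76 to 13.49). In Gata5-null replicate 1, Thbs1 was at 732.6 CPM (others 351.3 to 409.9).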

How the results depend on the processing

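Itih4 kept its direction in all 25 alternatives that gave it an adjusted p and was called in 24 of them, the exception being without wildtype replicate 4. The shared contrast's 1 call became 4 with RLE size factors, upper quartile scaling, limma-voom, limma-voom with sample weights, the heart muscle covariate or a threshold of 0.1, Mylk, Myh11 and Synpo2 joining Itih4. It became 5 with the replicate number as a block (replicate block), 23 with DESeq2 (3 higher, 20 lower; its filter left 19189 genes, Itih4 among them, with no adjusted p) and 0 to 9 as each library was left out (0 without wildtype replicate 4, 9 without Gata5-null replicate 4). Without wildtype replicate 2 and Gata5-null replicate 3 it was 2, and it stayed 1 with no filter, a stricter filter, the 8 mutant pools as 1 group, the Y-linked covariate or the authors' thresholds. None of 460 alternative values of the other genes with the smallest p changed sign. Those genes were chosen by p in the same libraries, so a kept sign is no separate evidence. Among the values of other named list genes 79 changed sign and 2755 did not. Only 3 of 12 libraries correlated best with a library of their own number, so the block rests on numbers alone. Between the mutant groups, the 0 calls became 7 with DESeq2, Gata5 among them, 0 to 1 as each library was left out, and 2 without those 2 libraries. Added after seeing the data, DESeq2 without its independent filtering gave 15 calls in the shared contrast (Itih4 adjusted p = 6.75e-06) and 7 between mutant groups, and leaving out also the pool without Xist gave 3 and 2. All 6 higher calls among the 15, and some of the lower ones, were genes at 0 in 4 to 9 libraries. Gata5's fitted shared log2 difference was -3.46 with 1 term per group (SE 1.048, unadjusted p = 0.00342, adjusted p = 1 by edgeR). That value depends on the prior count, the Gata5-null pools being at 0. It reversed to 0.21 when the 8 mutant pools were 1 group, by construction. That fit averages pools at 0 with the double-heterozygous pools, whose mean lay above wildtype. Depth limits genes near the floor: fold changes of genes at 0 in many libraries depend on the prior count.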
